A study of Homo sapiens with 18 samples.

Results

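The peaks of the DNA topoisomerases TOP2A and TOP2B were examined within 7 genes that are broken and rejoined in the recurrent translocations and inversions of leukaemia: RUNX1, RUNX1T1, ETV6, NUP98, PML, RARA and MECOM. The genes were chosen by name, by a rule that uses no measured value, and each was defined by its interval on the build hg19. They were proposed with earlier results of these data known. All 7 of 7 genes were found, and they cover 1460 kb, or 0.0481% of chromosomes 1 to 22 and X. RUNX1 spans chr21:36160098-36421595, RUNX1T1 chr8:92967195-93115454, ETV6 chr12:11802788-12048325 and NUP98 chr11:3696240-3819022. PML spans chr15:74287014-74340155, RARA chr17:38465423-38513895 and MECOM chr3:168801287-169381563. They held 774 of the 1399117 peaks of the 12 libraries analysed, or 0.0553%. Exons, introns and clinical breakpoint regions were not analysed here, because the gene reference at hand is on another build.

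Type II topoisomerases pass one DNA duplex through a transient double-strand break in another, and stay joined to the broken ends while they do so. Etoposide and mitoxantrone are anticancer drugs that hold the enzyme on the cut DNA. Leukaemias that arise after treatment with such drugs often carry translocations of genes of this kind, which is why the position of the enzymes on these genes is of interest. RUNX1 is a DNA-binding factor that directs blood formation, and in acute myeloid leukaemia it is fused to RUNX1T1, a corepressor, or to other partners. ETV6 is a repressor of the ETS family with many fusion partners, RUNX1 among them. PML organises nuclear bodies and RARA is a receptor for retinoic acid, and their fusion defines acute promyelocytic leukaemia. NUP98 is a nucleoporin whose repeats are joined to homeobox and other chromatin genes, and MECOM encodes the zinc finger factor EVI1, switched on by rearrangement of its chromosome arm.

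All libraries come from KG-1, an established human myeloid leukaemia line and so a single cancer genome. Peak lists give no measure of expression, so the identity of the line was not checked. In the etoposide experiment cells received methanol as the vehicle or 100 µM etoposide for 1 h, and each antibody has 2 libraries per condition (replicates 1 and 2). In the mitoxantrone experiment cells were left untreated or received 0.5 µM mitoxantrone for 1 h, with 1 library per antibody and condition. Chromatin was crosslinked with 1% formaldehyde for 10 min and precipitated with antibody (5 µg for TOP2A, 4 µg for TOP2B), and 3 precipitations were pooled per library. The 6 input samples of the 18 in the series were not analysed here. Nothing says that replicates came from separate cultures, so the spread behind a p-value may be only technical.

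The data are lists of positions called by the authors, not read depth, which is unknown. A peak here is an entry of a deposited MACS list, placed by its midpoint. On chromosomes 1 to 22 and X the etoposide experiment had from 35932 peaks (TOP2A etoposide replicate 1) to 294749 (TOP2B vehicle replicate 2), and the mitoxantrone experiment from 702 to 109429. Peak numbers per gene follow the length of the list. Each gene was therefore set against the density in the 1 Mb on either side of it in the same library (the gene-to-flank ratio, 1 where gene and surroundings are equally dense).

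Peaks were not detectably denser in the 7 genes than around them. Over the 8 libraries of the etoposide experiment and the 7 genes, 27 of 56 gene-to-flank ratios lay above 1 and 29 below. None of the 56 intervals (exact binomial, 95%, covering counting error only) left out 1. This depends on the caller. With sites of SISSRs, the authors' other caller, MECOM in TOP2B etoposide replicate 1 was at 0.498 (0.255 to 0.895). For the 7 genes summed, the ratio ran from 0.667 in TOP2A etoposide replicate 1 (12 peaks, interval 0.340 to 1.19) to 1.24 in TOP2B etoposide replicate 1 (47 peaks, 0.893 to 1.68). It was 0.961 and 0.959 in TOP2A vehicle replicates 1 and 2, with 116 and 133 peaks. Across all 8 libraries limma called 0 of the 7 genes different from their flanks at an adjusted p of 0.05. Of all 28156 features tested, which are bins of 100 kb and the 7 genes, it called 0.465% (96 features or 0.341% higher, 35 or 0.124% lower). The median log2 ratio was -0.06 over the genes and -0.14 over all features. On simulated data unchanged features had a median of -0.18, so a negative value alone does not show a sparser feature. The spread in that simulation was set, not estimated from these lists. There the 95% intervals of limma held the true value for 92.0% of unchanged features. They held it for 90% of features changed 2-fold and 81% of those changed 4-fold.

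**Figure D1:**
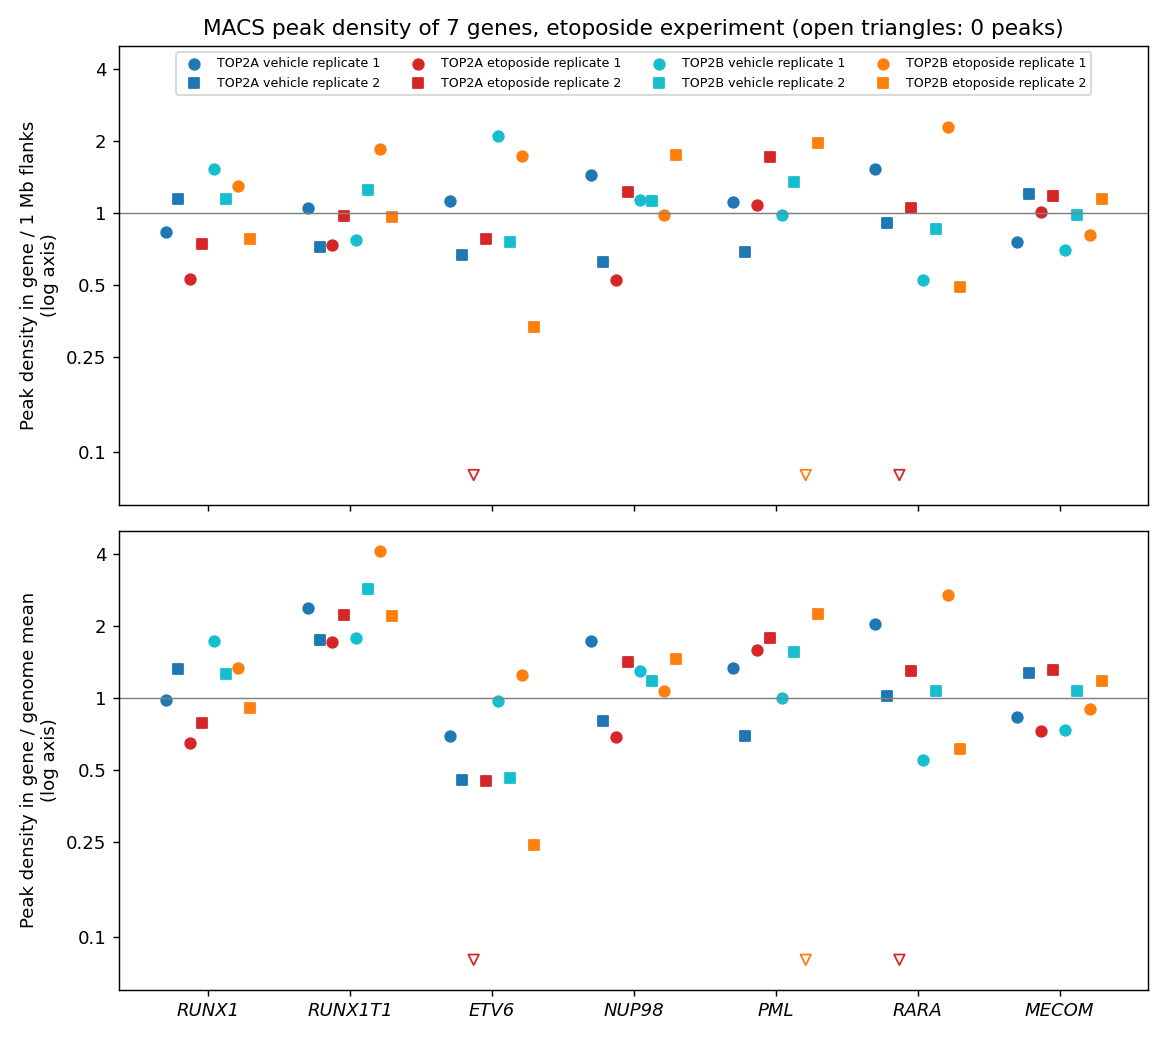
MACS peak density of each gene in the 8 libraries of the etoposide experiment, divided by that of the 1 Mb flanks (top) and by the genome mean (bottom), on log axes; circles are replicate 1, squares replicate 2, and open triangles at the foot stand for 0 peaks. The top ratios scatter on both sides of 1 for all 7 genes, while below all 8 RUNX1T1 values lie above 1 and 7 of 8 ETV6 values below it.

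In RUNX1, replicates 1 and 2 of TOP2A with vehicle held 18 and 28 peaks, followed by 2 and 13 for TOP2A with etoposide, 17 and 32 for TOP2B with vehicle, and 8 and 8 for TOP2B with etoposide. In the same order its gene-to-flank ratios were 0.834 and 1.14, 0.527 and 0.742, 1.53 and 1.14, and 1.30 and 0.775. The highest was in a TOP2B vehicle library and the lowest in the shortest list. The estimate over 8 libraries was 0.959-fold of the flanks (95% interval 0.775 to 1.19, limma adjusted p = 0.918).

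RUNX1T1, the fusion partner of RUNX1, held 25 and 21 peaks in the TOP2A vehicle libraries, 3 and 21 with etoposide, 10 and 41 with TOP2B and vehicle, and 14 and 11 with TOP2B and etoposide. Its gene-to-flank ratios were 1.04 and 0.723, 0.736 and 0.973, 0.771 and 1.25, and 1.85 and 0.957. The gene stood at 0.993-fold of its surroundings (0.803 to 1.23, limma adjusted p = 0.987).

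ETV6 held 12 and 9 peaks with TOP2A and vehicle, 0 and 7 with TOP2A and etoposide, 9 and 11 with TOP2B and vehicle, and 7 and 2 with TOP2B and etoposide. Its ratios to the flanks were 1.12 and 0.666, 0 and 0.781, 2.09 and 0.753, and 1.73 and 0.332. Replicates of 1 group stood on opposite sides of 1 in 3 of the 4 groups. The estimate was 0.786-fold (0.529 to 1.17, limma adjusted p = 0.705). The 0 in TOP2A etoposide replicate 1 stands against 1.47 peaks expected from its flanks, so absence was not detectable in that list.

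PML and RARA, which are fused to each other in promyelocytic leukaemia, are the shortest genes of the set at 53.1 and 48.5 kb. PML held 5 and 3 peaks with TOP2A and vehicle, 1 and 6 with TOP2A and etoposide, 2 and 8 with TOP2B and vehicle, and 0 and 4 with TOP2B and etoposide. RARA held 7 and 4, 0 and 4, 1 and 5, and 3 and 1 peaks in the same order. The estimates against the flanks were 0.996-fold for PML (0.646 to 1.54, limma adjusted p = 0.997) and 0.865-fold for RARA (0.560 to 1.34, limma adjusted p = 0.849). Neither gene held more than 8 peaks in any library, which limits what these ratios can show.

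NUP98 held 15 and 8 peaks with TOP2A and vehicle, 1 and 11 with TOP2A and etoposide, 6 and 14 with TOP2B and vehicle, and 3 and 6 with TOP2B and etoposide. Its ratios to the flanks ran from 0.525 to 1.75 with a median of 1.13, and the estimate was 1.04-fold (0.759 to 1.43, limma adjusted p = 0.950). MECOM, the longest gene at 580 kb, held 34 and 60, 5 and 48, 16 and 60, and 12 and 23 peaks in the same order. By MACS its ratios were the least scattered of the 7 genes, from 0.698 to 1.20, and the estimate was 0.956-fold (0.818 to 1.12, limma adjusted p = 0.873). With SISSRs sites the MECOM ratios ran from 0.498 to 1.18 (SD 0.259). Those of RUNX1T1 were then less scattered, from 0.721 to 1.27 (SD 0.199).

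The genes did differ in their level against the genome, and their flanks differed with them. Peak density divided by the genome mean of the same list was used here, a comparison added after the data were seen. RUNX1T1 had 2.38 and 1.74 times the genome mean with TOP2A and vehicle, 1.71 and 2.23 with TOP2A and etoposide, 1.79 and 2.85 with TOP2B and vehicle, and 4.11 and 2.20 with TOP2B and etoposide. All 8 values lie above 1, and RUNX1T1 was the densest of the 7 genes in 7 of 8 libraries. The estimate was 2.17-fold (1.75 to 2.70, log2 1.12, limma adjusted p = 6.7e-05), against a background of 4.87% of features called higher and a median log2 of -0.11 over all features. The flanks of RUNX1T1 were at 2.22 to 2.41 times the genome mean in the same 8 libraries. Over 10 Mb on each side the library means lay between 2.40 and 2.54, and no step of 1 Mb fell under 1.61. The level of RUNX1T1 is thus that of a long stretch of chromosome 8 in these lists.

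ETV6 stood at the other end. It had 0.691 and 0.450 times the genome mean with TOP2A and vehicle, 0 and 0.448 with TOP2A and etoposide, 0.970 and 0.461 with TOP2B and vehicle, and 1.24 and 0.241 with TOP2B and etoposide. It was the lowest of the 7 genes in 5 libraries and tied for lowest in 1. The estimate was 0.494-fold (0.335 to 0.729, log2 -1.02, limma adjusted p = 0.0195), where 6.95% of features were called lower. This call was lost when any of 5 libraries was left out, with a limma adjusted p of 0.101 without TOP2A etoposide replicate 1, 0.0534 and 0.0956 without TOP2A vehicle replicates 1 and 2, 0.0662 without TOP2B etoposide replicate 2 and 0.0981 without TOP2B vehicle replicate 2. The flanks of ETV6 were at 0.463 to 0.726 times the genome mean, below 1 in 8 of 8 libraries.

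The other 5 genes were not called against the genome mean. Their log2 estimates were 0.21 for NUP98, 0.10 for PML, 0.10 for RUNX1, 0.03 for RARA and -0.03 for MECOM, and their intervals all overlap each other, so the order among these 5 is not resolved. Their flanks had medians between 1.07 and 1.24 times the genome mean.

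ETV6 lies at the edge of a sparse segment of chromosome 12. With windows set after the values were seen, the stretch from 11 to 25 Mb had 0.489 to 0.605 times the genome mean (median 0.554) in the 8 libraries. The stretch from 0 to 10 Mb had 1.06 to 1.29 times (median 1.15), and that from 25 to 27 Mb had 1.19 to 1.67 times (median 1.44). From 28 to 32 Mb the level was again 0.499 to 0.589. Every library of the etoposide experiment shows the same steps, with the vehicle and with the drug, for both antibodies. What sets them was not tested.

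**Figure D2:**
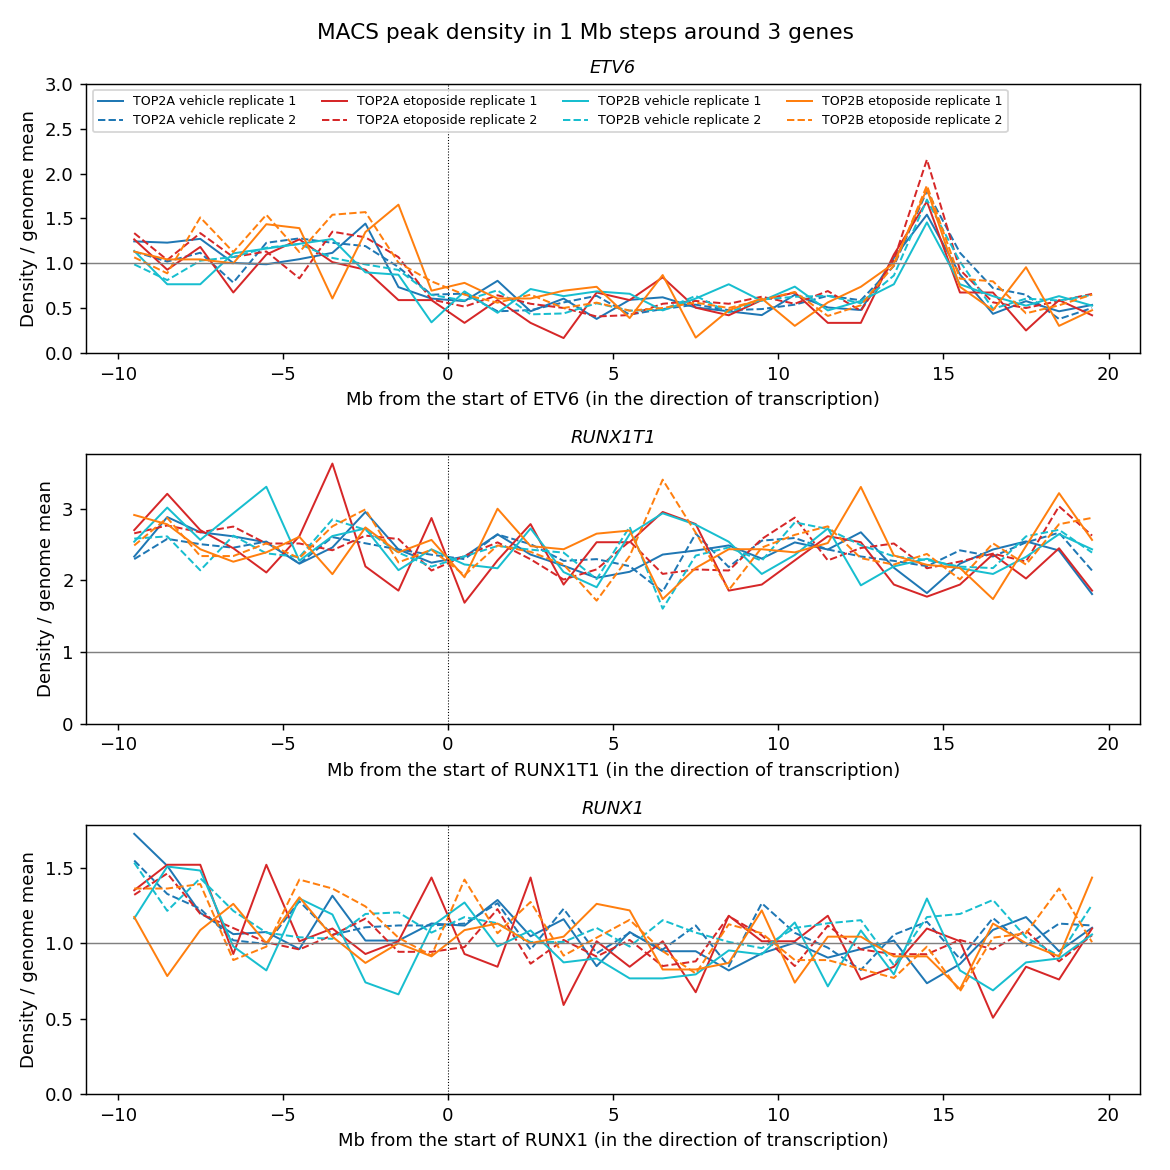
MACS peak density relative to the genome mean in steps of 1 Mb around ETV6, RUNX1T1 and RUNX1, plotted against the distance from the gene's start in the direction of transcription, 1 line per library of the etoposide experiment (solid for replicate 1, dashed for replicate 2). The lines drop from about 1 to a median near 0.554 just before ETV6 and stay there for over 10 Mb. Library means over 10 Mb on each side were 2.40 to 2.54 for RUNX1T1. For RUNX1 they were 1.01 to 1.14, with single steps from 0.591 to 1.73.

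Etoposide was compared with the vehicle to ask whether trapping the enzyme shifts peaks into these genes. No gene passed the test for either antibody. With TOP2A, limma called 0 of 7 genes and 0% of all features. An unadjusted limma p under 0.05 was found in 1065 of 28156 features, a smaller share than the 0.05 given by no effect. With TOP2B it called 0 of 7 genes and 0% of features, with 1560 under 0.05 unadjusted, slightly above that share. In both comparisons 0 of the 7 genes had an unadjusted p under 0.05. On simulated data the TOP2A comparison called 0% of 100 features changed 4-fold, so changes of that size can go uncalled here. The median log2 change of the gene-to-flank ratio was -0.13 over the genes and -0.10 over all features for TOP2A, and 0.18 and -0.06 for TOP2B.

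For TOP2A the estimates farthest from 1 were in ETV6 (0.515-fold of the vehicle, 95% interval 0.168 to 1.58) and RARA (0.530-fold, 0.155 to 1.82), the genes with 0 peaks in TOP2A etoposide replicate 1 (limma adjusted p = 0.996 for both). Both values rest on that library. On the log2 scale ETV6 went from -0.96 to -0.14 without it and RARA from -0.91 to -0.16, and without TOP2A etoposide replicate 2 they were at -1.78 and -1.67. In RUNX1 the mean ratio was 0.987 ± 0.215 with the vehicle and 0.635 ± 0.152 with etoposide (SD, n = 2 each), 0.677-fold on the log scale (0.370 to 1.24, limma adjusted p = 0.996). RUNX1 was the 1 gene of 7 whose TOP2A groups did not overlap, where 18.3% of all features had both etoposide values below both vehicle values and 15% had them above. MECOM, the gene with most peaks, gave the narrowest interval, 1.14-fold (0.734 to 1.77).

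For TOP2B the groups overlapped in 7 of 7 genes, where 18.2% of features did not overlap with etoposide lower and 15.5% with etoposide higher. RUNX1T1 was at 1.33-fold of the vehicle (0.731 to 2.43, limma adjusted p = 0.958), ETV6 at 0.648-fold (0.211 to 1.98), RARA at 1.46-fold (0.426 to 4.99) and MECOM at 1.16-fold (0.749 to 1.81). PML, with few peaks, had wide intervals, 0.431 to 5.00-fold with TOP2A and 0.192 to 2.23-fold with TOP2B. The lists were shorter with etoposide by amounts that differ between replicates, so peak numbers without the flank reference were not compared.

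**Figure D3:**
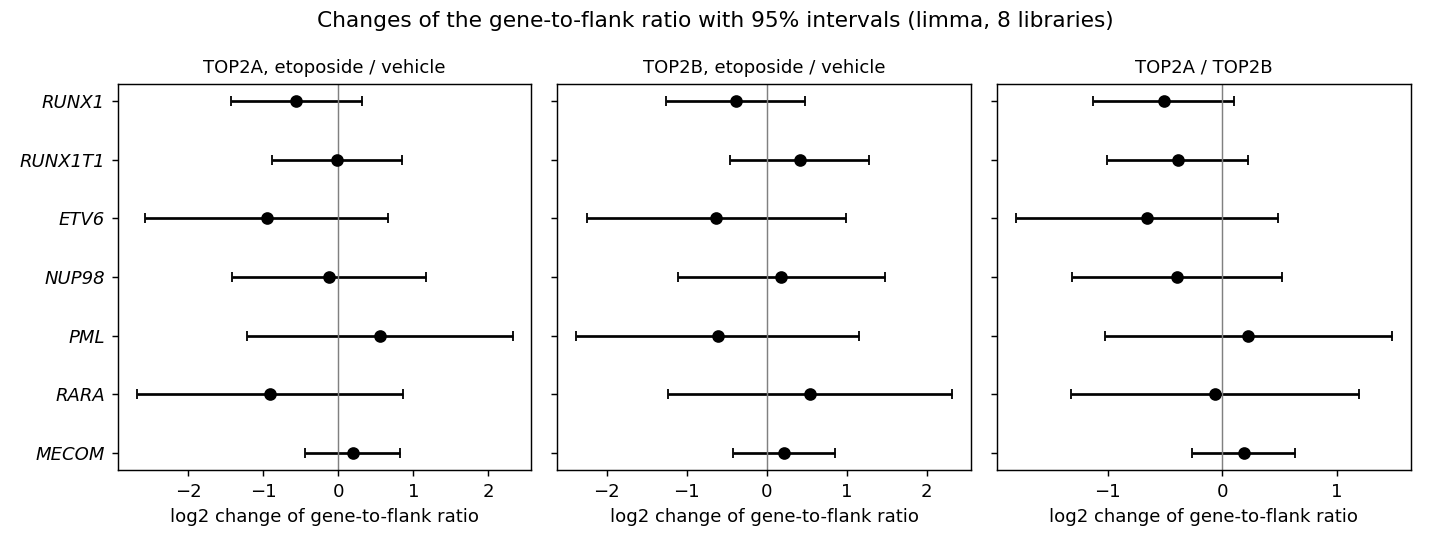
Log2 change of the gene-to-flank ratio with 95% intervals from limma over 8 libraries, for etoposide against vehicle with TOP2A (left) and TOP2B (middle) and for TOP2A against TOP2B over both conditions (right). All 21 intervals include 0, and those of MECOM are the narrowest.

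The 2 enzymes were compared over both conditions, TOP2A against TOP2B. Again 0 of 7 genes and 0% of features were called by limma (1212 features under an unadjusted 0.05, a smaller share than no effect gives). RUNX1 had the smallest unadjusted p of the 7 genes, with TOP2A at 0.701-fold of TOP2B (0.457 to 1.07, limma adjusted p = 0.961). RUNX1T1 was at 0.762-fold (0.498 to 1.17) and MECOM at 1.14-fold (0.832 to 1.55). No difference in the etoposide effect between the antibodies was called in any of the 7 genes by the interaction term of limma, which called 0% of features (1164 under an unadjusted 0.05), with adjusted p from 0.969 to 1.00 over the genes. The intervals of that difference are wide, from 0.0638 to 2.07-fold for RARA and from 0.525 to 1.83-fold for MECOM.

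The mitoxantrone experiment has 1 library per group and allows no test. TOP2A peaks of the untreated cells numbered 34 in MECOM, 7 in RUNX1, 6 in RUNX1T1, 6 in NUP98, 3 in ETV6, 1 in PML and 0 in RARA. With mitoxantrone there were 3 in MECOM, 3 in RUNX1 and 1 in RUNX1T1, and the other 4 genes had 0, in a list of 7584 peaks against 109429. For the 7 genes summed, the gene-to-flank ratio was 0.964 untreated (57 peaks, interval 0.721 to 1.27) and 1.91 with the drug (7 peaks, 0.715 to 4.38), so the intervals overlap. The RUNX1 ratio of 4.59 with mitoxantrone rests on 3 peaks (0.713 to 23.6). With SISSRs sites, from the authors' other caller, the summed ratio with the drug was 0.692 on 2 sites. At a MACS score of at least 100 it was 0, with 0 peaks in the genes and 1 in the flanks, too few to show a level.

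TOP2B gave 4 peaks in the 7 genes untreated, 2 of them in MECOM, and 1 with mitoxantrone, in RUNX1T1. The summed ratios were 0.711 (0.188 to 1.92) and 1.84 (0.0415 to 13.7). ETV6 and its 1 Mb flanks held 0 peaks in 3 of these 4 libraries. There the genome mean gives the gene alone at most 0.749 peaks. For 2 Mb, the length of both flanks, it gives 5.00 peaks with TOP2A and mitoxantrone and 6.10 with untreated TOP2B. With TOP2B and mitoxantrone it gives 0.463. RUNX1T1 itself had 1.12 times the genome mean in the untreated TOP2A list (6 peaks) and 2.21 in that of TOP2B (1 peak). With SISSRs sites these values were higher, 3.64 times (19 sites) and 11.7 times (6 sites). Its flanks were at 1.69 and 2.20 times the genome mean in the untreated and mitoxantrone TOP2A lists, and at 2.46 and 15.1 times in those of TOP2B, the last from 7 flank peaks in a list of 702. By SISSRs the same flanks stood at 5.32 and 11.4 times with TOP2A and at 10.5 and 11.98 times with TOP2B, so the size of the excess depends on the caller in this experiment.

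**Figure D4:**
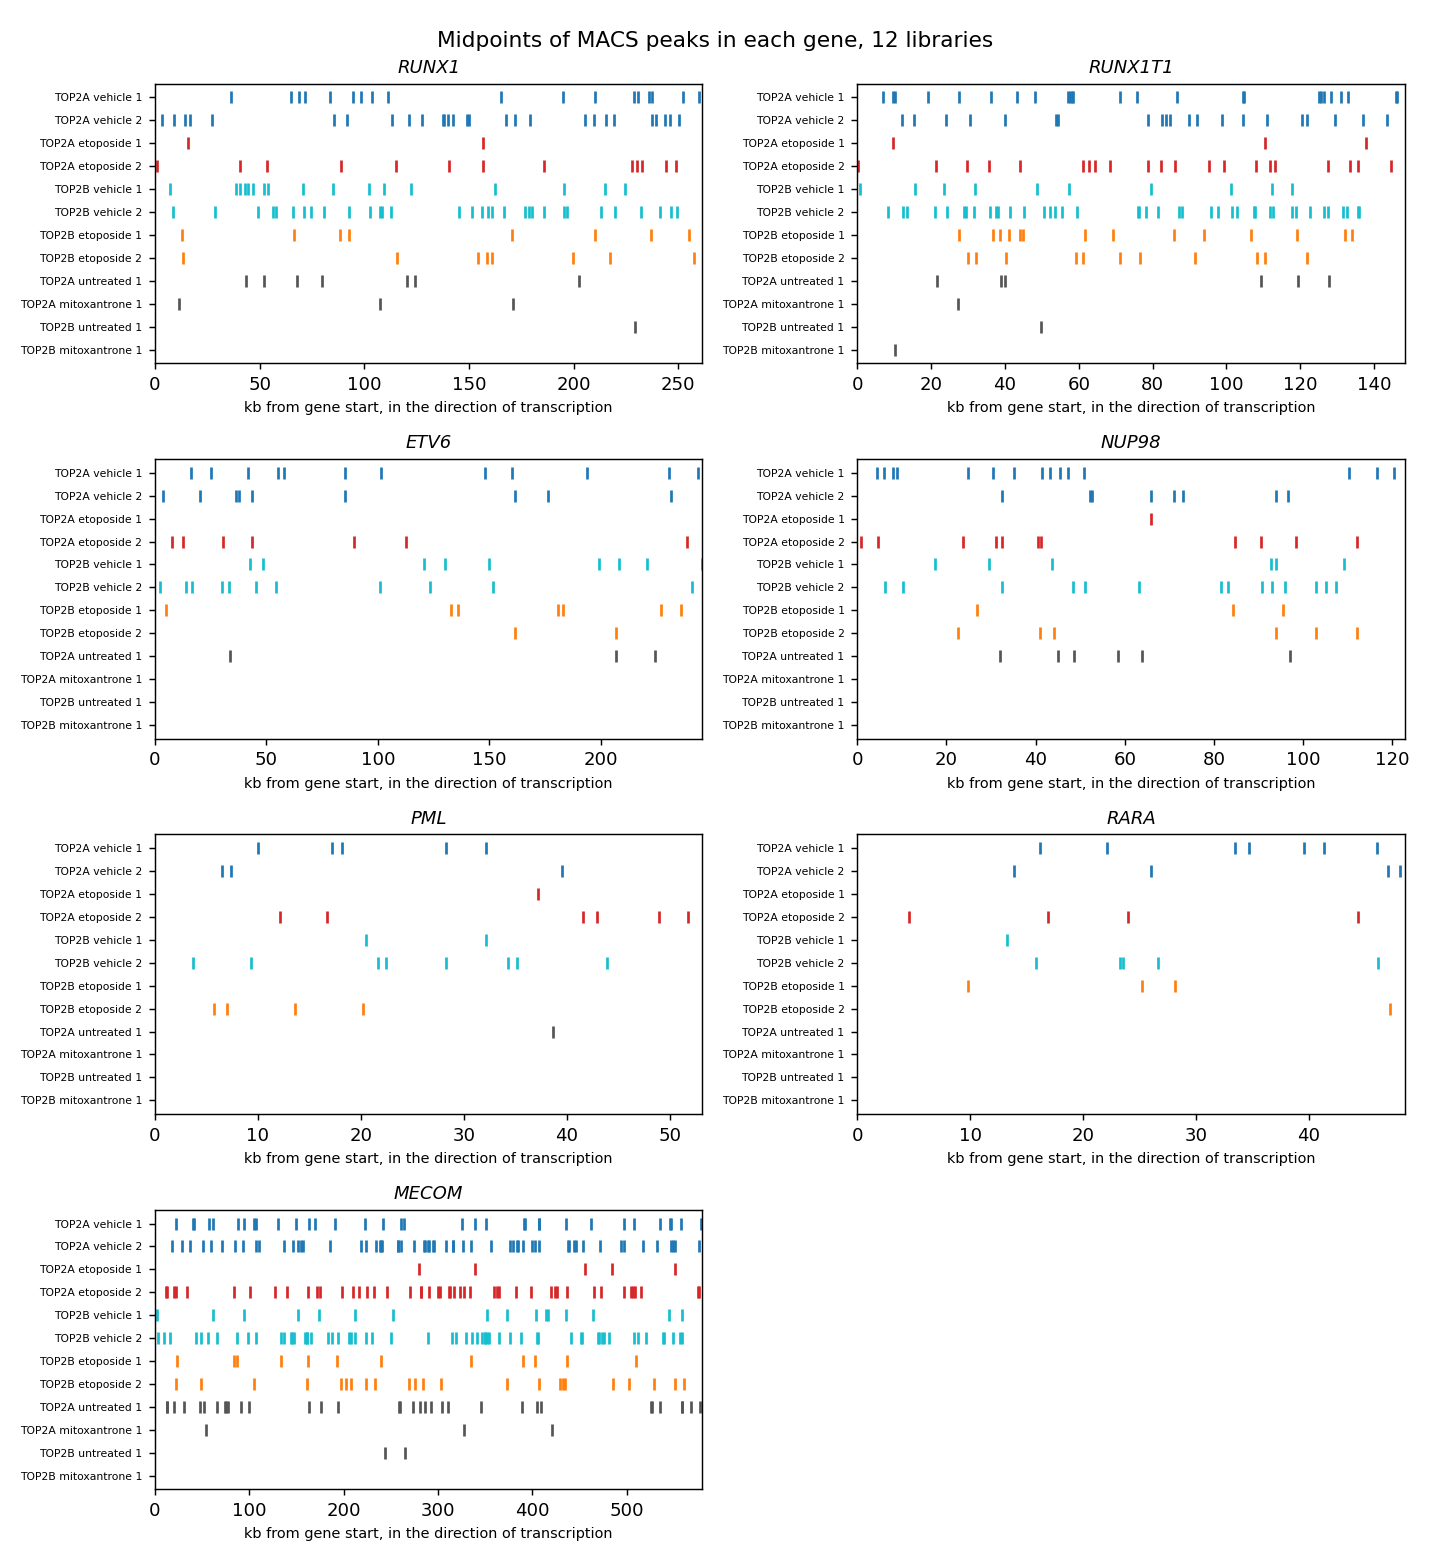
Midpoints of MACS peaks along each gene, in kb from the gene's start in the direction of transcription, 1 row per library; blue and red are TOP2A with vehicle and etoposide, cyan and orange TOP2B, and grey the 4 libraries of the mitoxantrone experiment. Peaks are spread along all 7 genes and few positions line up between rows, as the 658 of 712 regions seen in 1 library show.

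Within the genes, peaks lay along the whole length. With each gene divided into 3 equal parts from the start, RUNX1 had 37, 44 and 45 peaks in the 8 libraries of the etoposide experiment, RUNX1T1 46, 48 and 52, NUP98 21, 19 and 24, and MECOM 78, 93 and 87. ETV6 had 24, 17 and 16, PML 11, 11 and 7, and RARA 5, 10 and 10. The share of a gene's peaks in 1 part ran from 20% (RARA, nearest the start) to 42.1% (ETV6, nearest the start).

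Within 1 kb of the 7 gene starts lay 10 peaks, counted over 12 libraries, where the density of the genes themselves gives 7.95 and the genome mean 6.45 for the same 14 kb. RUNX1T1 had 5 of them in 3 libraries, where its own density gives 2.09, the nearest 27 bp upstream in TOP2A vehicle replicate 2. MECOM had 2, at 777 bp upstream in TOP2A vehicle replicate 2 and 977 bp upstream in the untreated TOP2B library. NUP98 had 1, at 835 bp downstream in TOP2A etoposide replicate 2. PML had 1 at 651 bp and RUNX1 1 at 923 bp upstream, both in TOP2A vehicle replicate 2. ETV6 and RARA had none. A start is the end of the hg19 interval on the side of transcription, and the strands of RUNX1T1 and PML were taken from general knowledge.

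To show the promoter sequence of genes with peaks near the start and without, the 250 bases before the outermost start in RefSeq are given for 4 genes, 2 with a peak within 1 kb (NUP98, MECOM) and 2 without (ETV6, RARA). RefSeq's table held entries for 5 of the 7 genes. That of RUNX1, which also had a peak within 1 kb, is at an inner start and is not shown. Positions are on GRCh38.p14, not on the hg19 of the peaks, and no peak was placed on these bases. CG dinucleotides are in capitals, searched as CG, which reads the same on both strands.
NUP98, chr11:3797555-3797804, minus strand: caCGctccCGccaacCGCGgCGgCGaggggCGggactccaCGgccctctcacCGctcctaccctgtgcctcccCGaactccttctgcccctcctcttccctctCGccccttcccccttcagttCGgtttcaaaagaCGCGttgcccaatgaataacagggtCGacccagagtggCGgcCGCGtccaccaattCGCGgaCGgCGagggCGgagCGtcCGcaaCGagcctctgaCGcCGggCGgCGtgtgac
MECOM, chr3:169663713-169663962, minus strand: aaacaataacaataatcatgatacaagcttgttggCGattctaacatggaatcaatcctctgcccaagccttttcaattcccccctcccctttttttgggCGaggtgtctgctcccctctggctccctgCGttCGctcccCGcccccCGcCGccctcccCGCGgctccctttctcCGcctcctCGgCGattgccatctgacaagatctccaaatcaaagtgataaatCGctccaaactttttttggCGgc
ETV6, chr12:11649424-11649673, plus strand: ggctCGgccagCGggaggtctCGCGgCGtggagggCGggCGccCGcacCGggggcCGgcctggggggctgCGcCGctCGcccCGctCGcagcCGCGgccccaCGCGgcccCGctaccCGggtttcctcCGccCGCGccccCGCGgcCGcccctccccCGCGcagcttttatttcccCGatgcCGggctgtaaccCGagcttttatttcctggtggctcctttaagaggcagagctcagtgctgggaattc
RARA, chr17:40308930-40309179, plus strand: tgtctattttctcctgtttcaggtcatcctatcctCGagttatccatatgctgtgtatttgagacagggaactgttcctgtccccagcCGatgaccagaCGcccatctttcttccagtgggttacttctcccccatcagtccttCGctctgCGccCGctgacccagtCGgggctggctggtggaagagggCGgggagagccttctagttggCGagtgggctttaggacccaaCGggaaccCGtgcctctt
NUP98 has 30 CG dinucleotides and 68.4% G or C, and ETV6 has 32 and 74.4%. MECOM has 14 and 53.6%, and RARA 11 and 56.4%. The medians of 35116 RefSeq promoters over the same 250 bases are 11 CG dinucleotides and 58% G or C, and 93.9% hold at least 1 CG. Whether these features go with the presence of a peak was not tested.

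Single peak positions rarely recurred. Merged over the 12 libraries where they shared at least 1 bp, the peaks touching the 7 genes gave 712 regions, of which 658 (92.4%) were seen in 1 library and 8 (1.12%) in 3 or more. Over the whole genome these shares were 91.7% and 0.923%. RUNX1T1 held 5 of the 8 (3.70% of its 135 regions), NUP98 2 (3.28% of 61) and MECOM 1 (0.360% of 278). No region was seen in more than 3 libraries. These shares were not corrected for peak density, and RUNX1T1 was the densest gene in 7 of 8 libraries of the etoposide experiment. The MECOM region, chr3:168884384-168884652, lies 497 kb from the start and had a peak in both TOP2A vehicle replicates and in TOP2A etoposide replicate 2. In NUP98, chr11:3786422-3786636 was called in TOP2A vehicle, TOP2A etoposide and TOP2B vehicle replicates 2, with a score at or above percentile 69.2 of each list. The second NUP98 region, chr11:3724960-3725252, was called in TOP2A vehicle replicate 2, TOP2B vehicle replicate 1 and TOP2B etoposide replicate 2.

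In RUNX1T1, chr8:93103434-93107087 lies 10.2 kb from the start. It is as wide as the single TOP2B peak under mitoxantrone, 3654 bp at percentile 99.0 of its list by score, and also holds peaks of TOP2A vehicle replicate 1 and TOP2A etoposide replicate 1. The other named RUNX1T1 region, chr8:93075146-93075655, was called in the untreated TOP2A library, TOP2A vehicle replicate 2 and TOP2B etoposide replicate 2. None of the 5 regions named was called in both replicates of a group under etoposide.

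Replicates of a group shared few peaks inside the genes. Of the 116 peaks of TOP2A vehicle replicate 1 in the genes, 5 (4.31%, Clopper-Pearson 95% interval 1.41 to 9.77) overlapped a peak of replicate 2, against 2.92% over the genome. For TOP2B with vehicle it was 1 of 61 (1.64%, 0.0415 to 8.80), against 3.44%. With etoposide 0 of 12 TOP2A and 0 of 47 TOP2B peaks overlapped, with upper bounds of 26.5% and 7.55% and genome values of 2.19% and 1.06%. Each genome value lies inside the interval of the genes. No start position was shared by any pair of libraries among the 774 peaks.

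The peaks in the genes had the form of their lists. From 66.7% to 81.9% of them in the 8 libraries were 98 to 128 bp wide, the narrowest width found in the list concerned, where 58.0% to 81.0% of all peaks were, and the median score percentile within the list was between 45.9 and 57.2. A SISSRs site overlapped 94.7% to 100% of them, and 95.3% to 99.7% of all peaks in the lists. In the mitoxantrone experiment, where peaks were wider, SISSRs sites overlapped 39 of 57 peaks in the genes of untreated TOP2A (68.4%, against 63.7% of its whole list), and 1 of 7, 1 of 4 and 0 of 1 in the others. SISSRs gave 799 sites in the 7 genes over the 12 libraries, and its counts differed most from those of MACS in TOP2A etoposide replicate 1, with 28 sites against 12 peaks, and in TOP2B etoposide replicate 1, with 63 against 47.

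Of the 21 pairs of genes, ETV6 and RUNX1 had the most similar gene-to-flank log2 ratios over the 8 libraries, with Pearson's r = 0.815 (exact permutation p = 0.0147, adjusted over 21 pairs 0.309) and Spearman's rho = 0.738 (exact permutation p = 0.0458, adjusted 0.483). Without the 2 libraries farthest from the median of RUNX1, r was 0.491. The same check took ETV6 and RARA from r = 0.671 to 0.984, so which pair is most similar depends on those libraries. The relation of ETV6 and RUNX1 fails the correction, and the 8 points share 4 groups and unequal list lengths.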

How the data were processed

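Chromatin of KG-1 cells was precipitated with TOP2A or TOP2B antibody and sequenced from both ends with reads of 50 bp, as the labels' protocols state. Per the submitters' processing notes, the build was hg19 and the tools included MACS 1.4, Bowtie2 2.2.5 and bedtools 2.26.0. Not given in the sources used here are caller settings, the SISSRs version and the use of input. The authors deposited, per library, a MACS list with a score per peak and a SISSRs list with a tag count, a fold (ratio) and a p-value for each site. These deposited SISSRs columns have no header and were read from their values. The authors called each library separately. The score only ranked or filtered peaks within a list, and SISSRs counts, folds and p-values were not compared. Depth is unknown, so precision was judged from peak numbers.

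Peaks were counted by midpoint on chromosomes 1 to 22 and X. The value tested was log2 of peaks plus 0.5 over the number expected from the 1 Mb flanks plus 0.5, for the 7 genes and all bins of 100 kb with a mean of at least 2 peaks per library (28156 features, all 7 genes included), in limma 3.58.1 (trend, robust; R 4.3.3) with 4 groups of 2 and Benjamini-Hochberg adjustment. Folds are on this scale. Groups and replicate numbers come from the sample labels. Alternatives were SISSRs sites, a score of at least 100, lists of equal length (35932 peaks), flanks of 500 kb, bins of 250 kb, a pseudocount of 2, no filter, a replicate block and leaving out each library. Tested on simulated data of 28156 features, the flank comparison called 30% of 100 features changed 2-fold in all libraries and 99% of 100 changed 4-fold. The TOP2A etoposide comparison called 0% of 100 at either fold. Simulated counts were drawn independently around the number expected from the flanks, which was held fixed. Their spread was set and not estimated from these lists, so the real lists may scatter otherwise. All 7 genes were described; regions were named if called in 3 or more of 12 libraries, at most 2 per gene, ranked by their lowest score percentile. The genes, lists and tests were chosen with earlier results of these data known. Counting and drawing used matplotlib 3.10.9, scipy 1.17.1, pandas 2.3.3 and numpy 2.4.6 in Python 3.11.15.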

Additional observations from a re-analysis of the deposited data

How the results depend on the processing

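No gene passed the threshold against its flanks, for etoposide or between antibodies under any of 436 alternative fits of single genes, and uncalled estimates changed sign in 53 of them. Bins of 250 kb, no filter and the replicate block cannot change a gene's estimate, only its p-value. Leaving out a library of one antibody likewise keeps the etoposide estimate of the other. The 53 changes of sign therefore come from the remaining fits, and the 436 overstate how much was varied. For etoposide the lack of calls says nothing of stability. On simulated data the TOP2A comparison called 0% of 100 features even at a 4-fold change. The TOP2B and antibody comparisons were not simulated. For settings other than leaving out a library, only the estimates whose sign differed from that of the main fit are listed next. At a score of at least 100 the log2 estimates were, for TOP2A against TOP2B -0.37 in PML, for density against the genome mean 0.10 in MECOM and -0.068 in RARA, for etoposide with TOP2A 0.073 in NUP98, for gene against flanks 0.11 in MECOM and 0.016 in RUNX1T1. With SISSRs sites the log2 estimates were, for TOP2A against TOP2B -0.11 in PML, for density against the genome mean -0.052 in RARA, for etoposide with TOP2A -0.10 in MECOM, 0.10 in NUP98 and 0.0070 in RUNX1T1, for etoposide with TOP2B -0.054 in MECOM and 0.35 in PML, for gene against flanks 0.22 in PML and 0.015 in RUNX1. With lists of equal length the log2 estimates were, for TOP2A against TOP2B -0.27 in MECOM and 0.052 in RUNX1T1, for etoposide with TOP2B 0.058 in RUNX1. With flanks of 500 kb the log2 estimates were, for etoposide with TOP2A -0.17 in MECOM and 0.051 in RUNX1T1, for gene against flanks 0.037 in RUNX1T1. With a pseudocount of 2 peaks the log2 estimates were, for TOP2A against TOP2B 0.062 in RARA, for etoposide with TOP2A 0.029 in RUNX1T1, for gene against flanks 0.074 in PML. With 1 library left out at a time, the estimates that changed sign had these ranges. For TOP2A against TOP2B, PML ran from -0.40 to 0.85 and RARA ran from -0.50 to 0.36. For density against the genome mean, MECOM ran from -0.13 to 0.069, PML ran from -0.24 to 0.45 and RARA ran from -0.17 to 0.23. With etoposide and TOP2A, ETV6 and RARA kept their sign but ran from -1.78 to -0.14 and from -1.67 to -0.16, and MECOM ran from -0.14 to 0.52, NUP98 ran from -0.71 to 0.45 and RUNX1T1 ran from -0.27 to 0.25. For etoposide with TOP2B, ETV6 ran from -1.68 to 0.42, MECOM ran from -0.024 to 0.46, NUP98 ran from -0.19 to 0.56, PML ran from -1.86 to 0.63, RARA ran from -0.31 to 1.40 and RUNX1T1 ran from -0.038 to 0.87. For gene against flanks, MECOM ran from -0.15 to 0.018, NUP98 ran from -0.087 to 0.20, PML ran from -0.32 to 0.31, RARA ran from -0.42 to 0.0050, RUNX1 ran from -0.15 to 0.028 and RUNX1T1 ran from -0.12 to 0.10. For ETV6 against the genome mean, the range was -1.28 to -0.76, and the call was lost in 5 of 8 such fits. RUNX1T1 kept its call against the genome mean in all 8 (1.02 to 1.22) and under the 6 other alternatives run. The cause of these changes was not tested.

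The number of features called against the flanks was 131, and became 240 with SISSRs sites, 319 with a pseudocount of 2 peaks, 0 with lists of equal length (2723 features and 4 of the 7 genes tested), and 59 to 135 with 1 library left out (59 and 64 without TOP2A vehicle replicates 1 and 2, 63 and 68 without those of TOP2B vehicle). Against the genome mean it was 3326, and 1749 to 3290 with 1 library left out (1749 and 1783 without TOP2A vehicle replicates 1 and 2, 1771 without TOP2B vehicle replicate 1, 2085 without TOP2A etoposide replicate 1). For etoposide it went from 0 to 20 without TOP2A etoposide replicate 2, and from 0 to 2 without TOP2B etoposide replicate 2. A reciprocal overlap of at least 50% took the shared peaks of TOP2A vehicle to 0.862% and of TOP2B vehicle to 0%. The summed mitoxantrone ratio of TOP2A became 0.692 with SISSRs sites. At a score of at least 100 it was 0, on 0 gene peaks and 1 flank peak (interval 0 to 526). That of TOP2B became 0 with SISSRs sites, on 0 gene sites and 13 flank sites. At a score of at least 100 it was 13.5, on 1 gene peak and 1 flank peak. Same-numbered replicates of different groups deviated with correlations of -0.0185 to 0.0140. The bins hold few peaks each, so counting noise can keep these values near 0, and they cannot show whether a preparation was shared. In the etoposide replicate 1 lists, 58.0% (TOP2A) and 58.8% (TOP2B) of peaks had the narrowest width. The other lists of that experiment had 70.0% to 81.0%. A replicate block called 141 features against the flanks and 3402 against the genome mean, 0 in the other comparisons, and changed no call of a gene. Depth is unknown, and the shortest lists leave too few peaks per gene to show a change.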
